A study of Homo sapiens with 33 samples.

Results

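Retinoic acid, the active form of vitamin A, was followed here through 9 genes chosen by name: ALDH1A1, ALDH1A2 and ALDH1A3, which make it from retinal, CYP26A1 and CYP26B1, which break it down, CRABP1 and CRABP2, which bind it in the cytoplasm, RARB, a receptor for it, and RARRES3, a gene that responds to it. Each of the 9 had its own row among the 58735 genes of the count table. They were measured by bulk RNA-seq in H9-DDdCas9VP192-FOXL2 clone 24 cells, a single clone derived from H9, a line of human embryonic stem cells. Every group carried the same doxycycline-inducible activator, a dCas9 joined to VP192 and to a destabilising domain that trimethoprim protects, together with guide RNAs for the promoter of FOXL2, a transcription factor of ovarian granulosa cells. The cells went through a 14-day gonadal differentiation in 11 groups of 3 libraries. One group was taken on day 4, before any induction. The CTRL groups then stayed in IM medium, and the IND groups were given the same medium with 1 µg/ml DOX and 1 µM TMP to switch on FOXL2, and both were sampled on days 6, 8, 10, 12 and 14. IM medium is DMEM/F-12 with a B-27 supplement, and no retinoid is named among the additions to either arm, while whether the B-27 held vitamin A is not given in the sources used here. No group received DOX and TMP without the activation of FOXL2, so the drugs and FOXL2 cannot be told apart, and the study noted that not every IND cell expressed FOXL2. The 3 libraries of a group were wells of 1 differentiation, so the p-values measure only the spread between wells.

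In embryos, retinol is oxidised to retinal by RDH10 and related enzymes and returned to retinol by DHRS3, and the ALDH1A enzymes then make retinoic acid, which is passed to nuclear receptors. Pairs of an RAR and an RXR sit on repeats of a short hexamer in DNA and switch on genes that include RARB and CYP26A1, so that the signal raises its own receptor and its own breakdown. Retinoic acid patterns the trunk mesoderm and the kidney, and in the fetal gonad it is known for its part in the entry of germ cells into meiosis and CYP26B1 for keeping it low in the testis.

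Promoter sequence was available for 8 of the 9 members in RefSeq (GRCh38.p14), as 13 windows of 300 bases that run from 250 bases before to 50 bases after an annotated start. Both strands were searched for the hexamer AGGTCA and for its variants with the letters GGTTCA, with AGTTCA and with GGGTCA, alone or as direct repeats with a gap of 5 bases (DR5), 2 bases (DR2) or 1 base (DR1), and for the forkhead core GTAAACA. A single hexamer was present in 38.6% of the 35116 windows of all genes, a DR5 in 0.0883% (31 windows), a DR2 in 0.0399%, a DR1 in 0.131% and the forkhead core in 3.42%. RARB and CYP26A1 were the members with a DR5, and they are shown because they are the textbook targets whose levels are described below. Every repeat contains hexamers, so the DR5 and hexamer matches overlap. The capitals mark the DR5. The RARB stretch is the plus strand of chr3:25428013-25428262, directly before a start within the gene, and its repeat lies at chr3:25428210-25428226 with its near end 36 bases from that start. The CYP26A1 stretch is the plus strand of chr10:93073797-93073825, and its repeat reads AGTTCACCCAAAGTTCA on the minus strand at chr10:93073803-93073819, 73 bases before a RefSeq start that lies within the gene as the count table bounds it. The window at the other CYP26A1 start held no hexamer.
RARB: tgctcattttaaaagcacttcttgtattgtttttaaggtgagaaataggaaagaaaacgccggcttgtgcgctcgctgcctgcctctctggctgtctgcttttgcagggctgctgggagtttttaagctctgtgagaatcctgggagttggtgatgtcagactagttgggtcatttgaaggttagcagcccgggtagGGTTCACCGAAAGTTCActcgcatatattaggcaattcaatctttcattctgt
CYP26A1: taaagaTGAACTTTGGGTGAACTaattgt
Single hexamers were also found in the windows of ALDH1A2 (AGTTCA, 166 bases upstream) and CRABP2 (GGTTCA, 243 bases upstream) and in other RARB windows. The RARB stretch shown holds a further one outside the capitals, GGGTCA at chr3:25428180-25428185, 77 bases before the start. No window of a member held a DR2, a DR1 or the forkhead core.

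Library totals ran from 23940837 to 51912815 counts (median 41420455), and 3 counts, the limit that a count of 0 allows, equalled 0.0564 to 0.129 CPM, the counts divided by the TMM-scaled library size in units of 1e+06. Intervals and limits from counts cover counting error only. FOXL2 was at 147.5 CPM or more in every IND library and at 0.388 CPM or less in all others. Of the markers of the coelomic epithelium, from which the gonad forms, LHX9 was at the floor on day 4 and in both day 6 groups and WT1 on day 4, while the summed list stood between 952 and 1880 CPM in every library. Replicate 2 of day 10 IND stood apart from its group, with the lowest total and 17621 CPM of COL1A1 against 4590 and 3768 in the other libraries. Its summed pluripotency markers stood at 1961 CPM against 393 and 467. Most of that sum was 1 gene, LIN28A, at 1812 CPM against 278 and 343 CPM, so it does not describe the other markers of the list. The day 10 tests of single genes between the arms that are described here are therefore given with and without it. The day 10 counts of non-overlapping members, list medians and ALDH1A3 ratio are given only with it.

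Between the arms, 1 to 3 of the retinoic acid genes were called on each day before day 14, and 6 at day 14 (edgeR quasi-likelihood test, Benjamini-Hochberg adjusted over all genes, threshold 0.05). At day 6, 1 of 8 members tested was called, higher in IND, where 3.66% of all 19133 genes tested were called (1.29% higher and 2.37% lower). At day 8, 3 of 8 were called, all higher, against 14.2% of all genes (7.49% higher and 6.67% lower). Day 10 and day 12 each gave 1 call, higher in IND, among 8 and 9 members tested, against 2.03% (0.856% higher and 1.18% lower) and 5.42% (2.38% and 3.04%). At day 14, 2 members were higher and 4 lower of 9 tested, against 8.43% (3.21% and 5.22%). The libraries of the arms did not overlap for 1, 4, 3, 4 and 6 members on days 6 to 14, beside 19.1%, 33.1%, 30.9%, 30.3% and 26.7% of all genes. Without replicate 2 of day 10 IND, the day 10 count was 3 members rather than 1, and 3768 genes rather than 404 were called. Without day 10 CTRL replicate 1 or 2 it was 0 members, and 12 and 11 genes in all were called. The count of members was 0 or 2 at day 6 when single libraries were left out, through RARRES3 and CRABP1 as described below. It was 3 at day 12 without IND replicate 1 and 3 at day 14 without IND replicate 3. All genes called also moved, from 700 to between 348 and 915 at day 6. They went from 1080 to 1979 in that day 12 fit and from 1606 to 905 in that day 14 fit. RARRES3 on every day, ALDH1A3 where tested and ALDH1A1 at days 6 and 8 passed the filter on low counts mainly through IND. The IND libraries are those where they were high, so these counts describe the members and are no test of the list.

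The members were also compared with their level on day 4. Against the shared day 4 libraries, CTRL (the DIFF comparison) had 1 member higher and 3 lower of 6 tested at day 6, 2 and 4 of 6 at day 8, 3 and 4 of 7 at days 10 and 12, and 3 and 3 of 7 at day 14. The shares of all genes called were 21.6% (11% higher and 10.6% lower), 37.1% (18.1% and 18.9%), 45.1% (23.1% and 22%), 48.1% (24.4% and 23.8%) and 47.6% (24.6% and 22.9%). For IND against day 4 (DIFF+IND), 2 members were higher and 3 lower of 8 tested at day 6, 4 and 4 of 8 at day 8, 4 and 3 of 8 at day 10, 4 and 4 of 9 at day 12, and 5 and 3 of 9 at day 14. There the shares of all genes were 26.5% (13.1% and 13.5%), 35.8% (18.7% and 17%), 21.6% (11.9% and 9.79%), 37.1% (20.5% and 16.6%) and 50.6% (25.8% and 24.8%). The share of all genes whose libraries did not overlap those of day 4 was 39.4%, 51.5%, 57.6%, 59.4% and 58.6% in CTRL and 44%, 49.8%, 45.3%, 51.4% and 60.2% in IND. These comparisons use the same 3 day 4 libraries.

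**Figure D1:**
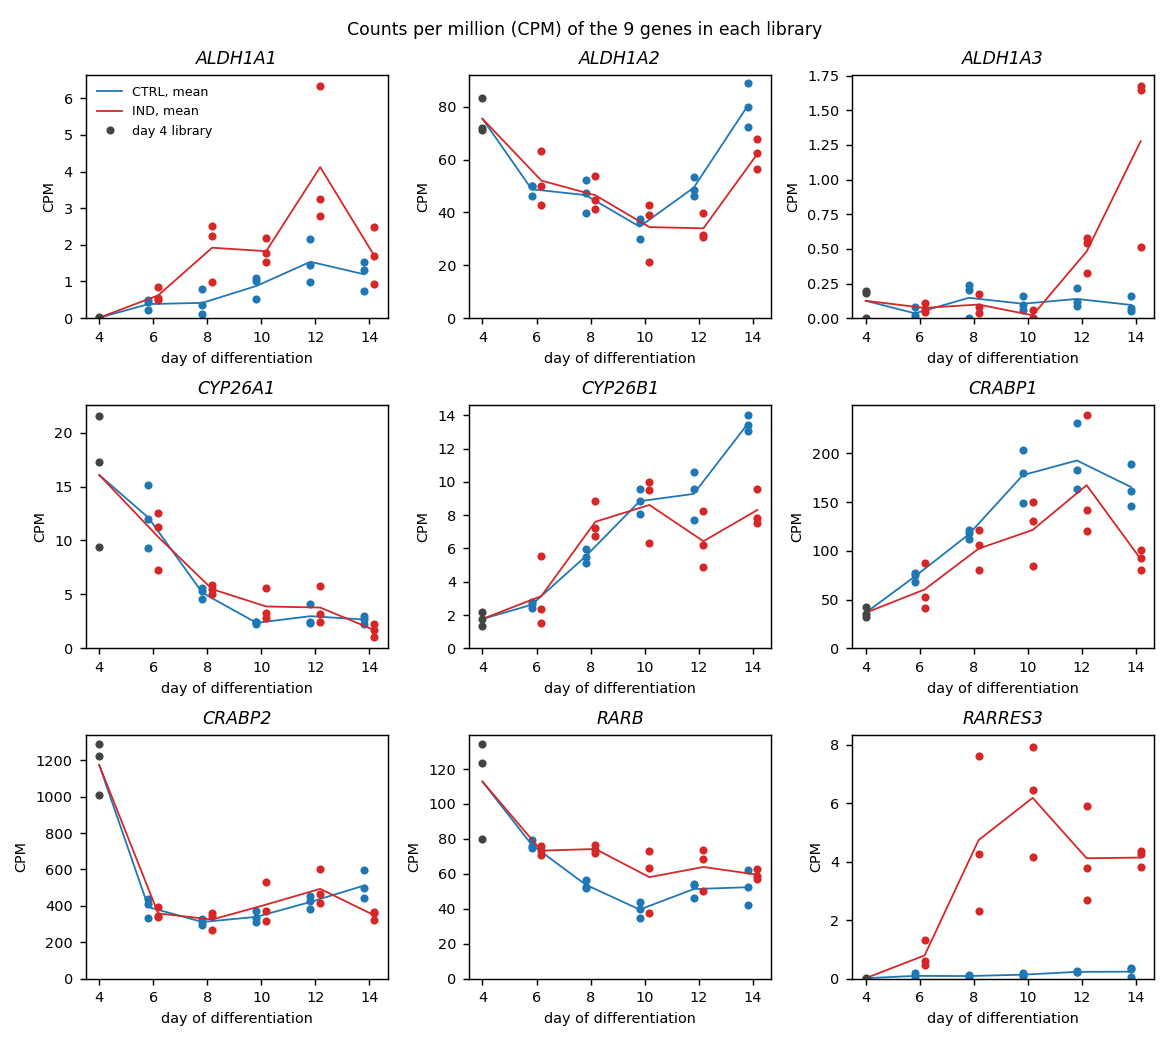
Level of each of the 9 members by day, in CPM on linear axes that start at 0, with 1 point per library and a line through the mean of 3 libraries for CTRL and for IND. RARRES3 separates the arms on every day from day 6, CYP26A1 and CYP26B1 move in opposite directions with time, and CRABP1, CRABP2, CYP26B1 and ALDH1A2 lie lower in IND than in CTRL at day 14.

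Per unit of length, in FPKM, CRABP2 had the highest level of the 9 in every group, with 1057 ± 130 FPKM (SD, n = 3) on day 4, followed by CRABP1 at 36.4 ± 5.31 and RARB at 30.2 ± 7.80. ALDH1A2 was at 8.67 ± 0.788 FPKM and CYP26A1 at 5.35 ± 2.03 on day 4. ALDH1A1, ALDH1A3 and RARRES3 were each below 0.03 FPKM there. At day 10, RARRES3 in IND (4.76 FPKM) stood above ALDH1A2 (3.99 FPKM) in the mean of 3 libraries. That order came from replicate 2 (6.16 and 2.50 FPKM), since the mean of replicates 1 and 3 was 4.06 FPKM for RARRES3 and 4.73 FPKM for ALDH1A2.

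ALDH1A2 (ENSG00000128918, minus strand of chr15:57953424-58497866, GRCh38) is the main retinoic acid producing enzyme of the embryonic trunk mesoderm. It supplied at least 72.3% of the summed FPKM of the 3 ALDH1A genes in every group mean. It was at 83.3, 71.9 and 71.2 CPM on day 4 and fell in CTRL to 37.5, 36.3 and 30.1 CPM at day 10, then rose to 88.9, 79.8 and 72.5 CPM at day 14. The day 10 libraries lay below all day 4 libraries, and those of day 14 overlapped them. In CTRL the log2 fold changes against day 4 were -0.63, -0.70, -1.11 and -0.61 at days 6 to 12 (edgeR adjusted p = 0.00379, 0.00236, 0.000122 and 0.0017) and 0.10 at day 14 (adjusted p = 0.542). In IND they were -0.53, -0.69, -1.13 and -1.16, all called, and -0.29 at day 14 (adjusted p = 0.0639). The IND call at day 6 was lost without day 4 replicate 1 (adjusted p = 0.115), IND replicate 2 (0.113) or IND replicate 3 (0.109), and that at day 10 without day 4 replicate 1, 2 or 3 (0.0884, 0.0609 and 0.0548), while without IND replicate 2 the day 10 value was -0.89 (0.00174).

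Between the arms, ALDH1A2 was lower in IND at day 14 and its libraries were already apart at day 12. At day 12 it was at 30.7, 31.4 and 40.0 CPM in IND against 53.4, 46.3 and 48.4 CPM in CTRL, and at day 14 at 67.7, 56.3 and 62.7 against 88.9, 79.8 and 72.5 CPM. The arms did not overlap on either day. The log2 difference was -0.54 (SE 0.139) at day 12, which missed the threshold (edgeR adjusted p = 0.0625), and -0.37 (SE 0.099) at day 14, 1.29-fold lower in IND (adjusted p = 0.0351). The day 14 call was lost without CTRL replicate 1 (adjusted p = 0.164), CTRL replicate 2 (0.0552), IND replicate 2 (0.154) or IND replicate 3 (0.123), with limma on FPKM (0.0909) and with 1 fit over all libraries (0.356), and the direction was kept in all 12 alternatives. The day 12 difference passed the threshold without a filter on low counts (0.0161), with DESeq2 (0.0152), and without IND replicate 1 (0.0316) or IND replicate 3 (0.0364).

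ALDH1A1 (ENSG00000165092, minus strand of chr9:72900662-73080442) makes retinoic acid in many adult tissues and in the fetal gonad. It had 1 count in the 3 day 4 libraries together and rose with time in both arms. In CTRL it reached 0.997, 2.16 and 1.46 CPM at day 12, and in IND 3.24, 6.33 and 2.80 CPM. The ratio to day 4 was 132 in CTRL (95% counting interval 23.4 to 5226) and 377 in IND (67.3 to 14913), where the single day 4 count leaves the size open. At day 8 the IND libraries held 2.52, 2.25 and 0.997 CPM and the CTRL libraries 0.111, 0.794 and 0.348 CPM. All 3 IND values were above all CTRL values, by 2.21 on the log2 scale (SE 0.60, edgeR adjusted p = 0.0411). That call was lost without CTRL replicate 1 (adjusted p = 0.0883), CTRL replicate 3 (0.173), IND replicate 1 (0.106) or IND replicate 2 (0.136). The arms were also apart at day 10 (log2 difference 1.06, adjusted p = 0.321, and 1.08 with adjusted p = 0.0381 without IND replicate 2) and at day 12 (1.43, adjusted p = 0.0722). The day 12 difference passed the threshold with no filter on low counts (0.00213) and with DESeq2 (0.00392). At day 14 the arms overlapped, with 1.31, 1.54 and 0.731 CPM in CTRL and 1.71, 2.48 and 0.929 CPM in IND (log2 difference 0.50, adjusted p = 0.522).

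ALDH1A3 (ENSG00000184254, plus strand of chr15:100877714-100916626), known from the developing eye and nasal region, was at 0.241 CPM or less in every library outside 2 groups. These were day 12 IND, with 0.581, 0.324 and 0.539 CPM, and day 14 IND, with 1.67, 0.511 and 1.65 CPM, while CTRL held 0.0534, 0.0702 and 0.162 CPM at day 14. All IND libraries were above all CTRL libraries on both days. At day 14 the difference was 3.78 on the log2 scale (SE 0.636), 13.8-fold, from 161 counts in IND and 8 in CTRL (edgeR adjusted p = 0.00209), and it was called in 11 of 12 alternatives (limma on FPKM 0.0698). At day 12 it was 1.77 (SE 0.521) and missed the threshold (adjusted p = 0.093). At day 10 the order was the other way, with 3 counts in IND and 15 in CTRL (ratio 0.238, 95% counting interval 0.0442 to 0.842). Replicate 2 of IND, the library that stood apart, is included there with a count of 0. An antisense gene, AC015712.2, shares 27.5% of the exonic length of ALDH1A3. The library preparation did not mark strand, so the values are uncertain to that extent, and AC015712.2 itself had 24 counts in day 14 IND and 7 in day 14 CTRL.

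The CYP26 enzymes oxidise retinoic acid and end its action. CYP26A1 (ENSG00000095596, plus strand of chr10:93073475-93077890) fell and CYP26B1 (ENSG00000003137, minus strand of chr2:72129238-72148038) rose during differentiation. CYP26A1 was at 17.2, 9.42 and 21.6 CPM on day 4 and at 2.75, 2.25 and 3.00 CPM in day 14 CTRL. CYP26B1 went from 1.74, 1.35 and 2.20 CPM to 14.0, 13.1 and 13.4 CPM. For neither gene did day 4 and day 14 overlap. In CTRL the log2 fold change at day 14 was -2.58 for CYP26A1 (6-fold lower, edgeR adjusted p = 0.000131) and 2.93 for CYP26B1 (7.65-fold higher, adjusted p = 9.37e-06). Both genes were called on every day from day 8, with CYP26A1 at -1.64 and CYP26B1 at 1.64 on day 8. In IND, CYP26A1 was 9.53-fold lower at day 14 than on day 4 (log2 fold change -3.25, adjusted p = 5.43e-05) and CYP26B1 was higher by 2.23 (adjusted p = 5.74e-05). In IND at day 10 the CYP26A1 value was -2.06, and -2.42 without IND replicate 2 (adjusted p = 0.002), and that call was lost without day 4 replicate 1 (adjusted p = 0.0521).

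These shifts reversed which CYP26 gene held most of the family's RNA. CYP26A1 made up 92.1% ± 1.46 (SD, n = 3) of the summed FPKM of CYP26A1, CYP26B1 and CYP26C1 on day 4. In CTRL its share was 85.3%, 58.7%, 29.3%, 31.3% and 23.4% on days 6 to 14, and in IND it was 84.6%, 51.9%, 39.8%, 45.2% and 24.9%, with the 3 day 10 IND libraries between 35.1% and 42.5%. CYP26B1 went from 6.29% on day 4 to 70.4% ± 2.92 in CTRL and 73.6% ± 4.56 in IND at day 14. The summed level of the family was 5.79 ± 2.15 FPKM on day 4, 3.86 ± 0.273 FPKM in day 14 CTRL and 2.27 ± 0.397 FPKM in day 14 IND. A gene on the same strand, AL358613.3, shares 25.2% of the exonic length of CYP26A1 and had a mean of 0 counts. How reads of that shared part were assigned is not known, so the level and share of CYP26A1 are uncertain to that extent.

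**Figure D2:**
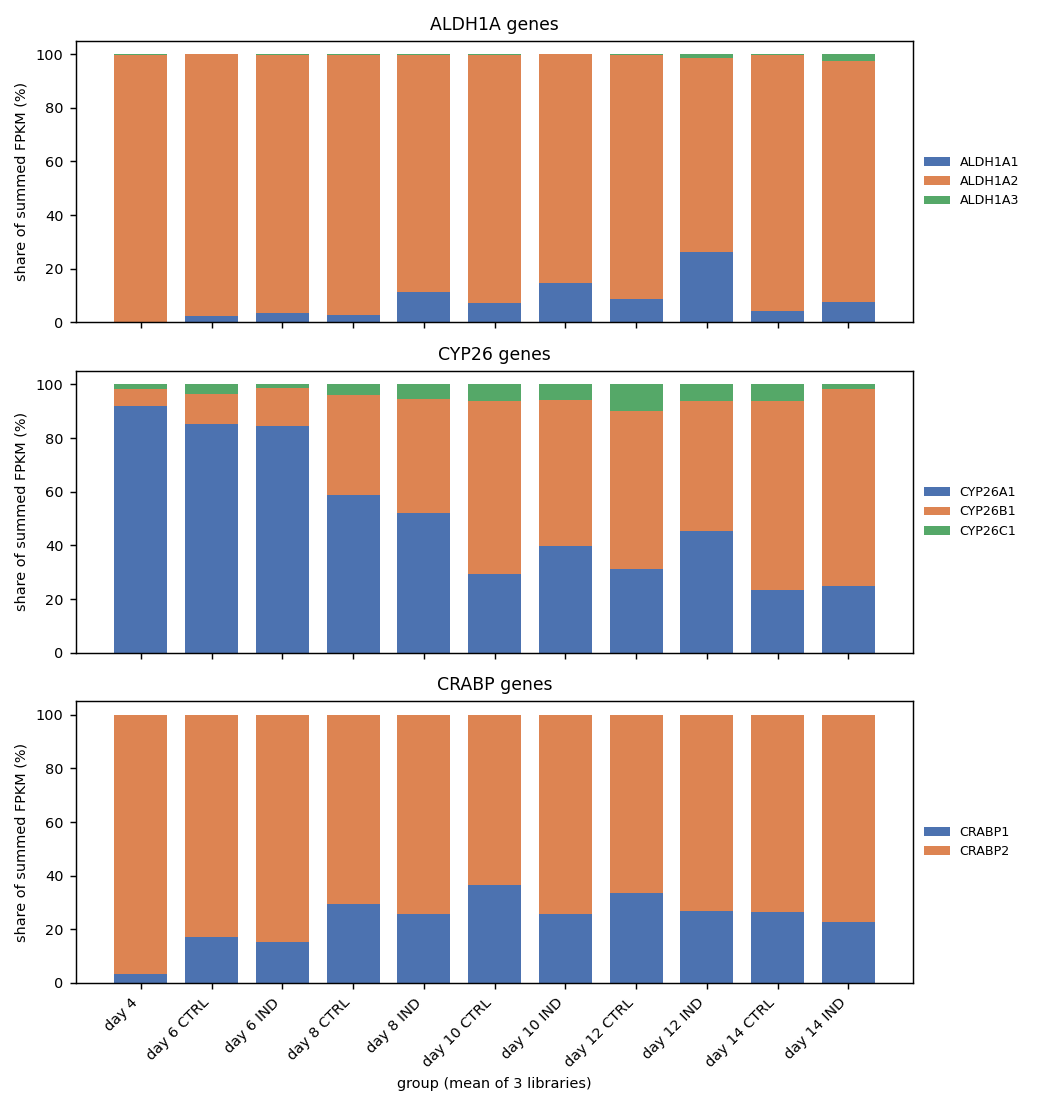
Share of each member in the summed FPKM of its family (ALDH1A, CYP26 and CRABP), in percent, by day and arm, as means of 3 libraries. ALDH1A2 keeps at least 72.3% of the ALDH1A sum, and the CYP26 sum passes from mostly CYP26A1 on day 4 (92.1%) to mostly CYP26B1 on day 14 (70.4% in CTRL).

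CYP26B1 differed between the arms in opposite directions at day 8 and day 14. At day 8 it was at 6.73, 7.21 and 8.87 CPM in IND and 5.10, 5.51 and 5.96 CPM in CTRL, without overlap, a log2 difference of 0.47 (SE 0.16) that missed the threshold (edgeR adjusted p = 0.0728). At day 14 it was at 9.59, 7.84 and 7.51 CPM in IND and 14.0, 13.1 and 13.4 CPM in CTRL, again without overlap but with IND below CTRL. That difference was -0.70 (SE 0.146), 1.62-fold lower in IND (adjusted p = 0.0086), and the call was lost without IND replicate 3 (adjusted p = 0.0537) and with 1 fit over all libraries (0.208). CYP26A1 was not called between the arms on any day. At day 10, IND held 3.25, 5.61 and 2.78 CPM against 2.29, 2.40 and 2.41 CPM, a difference of 0.71 (adjusted p = 0.378) that was 0.35 (adjusted p = 0.275) without IND replicate 2, the library at 5.61 CPM. At day 14 the CYP26A1 difference was -0.65 (SE 0.296, adjusted p = 0.224).

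CRABP1 and CRABP2 carry retinoic acid in the cytoplasm, CRABP1 toward the enzymes that degrade it and CRABP2 toward the receptors. Against day 4, CRABP1 (ENSG00000166426, plus strand of chr15:78340324-78348230) rose and CRABP2 (ENSG00000143320, minus strand of chr1:156699606-156705816) fell. CRABP1 was at 35.5, 42.1 and 31.8 CPM on day 4 and at 164, 183 and 231 CPM in day 12 CTRL. CRABP2 was at 1226, 1007 and 1289 CPM on day 4 and at 436, 334 and 409 CPM in day 6 CTRL. The 3 day 4 libraries of CRABP2 were above every later library. In CTRL the log2 fold changes of CRABP1 were 1.01, 1.68, 2.30, 2.40 and 2.19 on days 6 to 14, all called by edgeR, and those of CRABP2 were -1.58, -1.92, -1.77, -1.48 and -1.19, all called. In IND, CRABP1 at day 6 was at 40.8, 52.2 and 87.9 CPM and missed the threshold against day 4 (0.74, edgeR adjusted p = 0.0559), passing it with DESeq2 (0.014) and without IND replicate 1 (0.0257). The share of CRABP1 in the FPKM of both genes was 3.4% on day 4 and was 36.6% in CTRL and 25.7% in IND at day 10, where replicate 2 of IND held 14.96% and replicates 1 and 3 averaged 31.0%.

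At day 14 both binding proteins were lower in IND. CRABP1 was at 80.7, 92.7 and 101.3 CPM in IND and at 161, 189 and 146 CPM in CTRL. CRABP2 was at 358, 367 and 319 CPM in IND and at 497, 595 and 443 CPM in CTRL. All IND libraries were below all CTRL libraries for both genes. The log2 difference of CRABP1 was -0.85 (SE 0.108), 1.8-fold lower (edgeR adjusted p = 0.000318), and it was called in 12 of 12 alternatives. That of CRABP2 was -0.55 (SE 0.11), 1.47-fold lower (adjusted p = 0.00619), and was lost without IND replicate 3 (0.0571). On earlier days neither gene was called, and the libraries of the 2 arms overlapped. Leaving out IND replicate 3 made a call of CRABP1 at day 6, lower in IND (adjusted p = 0.00608), and of CRABP2 at day 8, higher in IND (0.0497). An antisense gene, AC011270.2, covers 47.2% of the exonic length of CRABP1, and it had at most 35 counts in any group of 3 libraries. That low count does not show how reads of the shared part were assigned, so the level and share of CRABP1 are uncertain to that extent.

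Markers of other cell types also differed between the arms. The summed neuron markers were between 430 and 749 CPM in day 14 CTRL and between 306 and 380 CPM in day 14 IND, and the summed neural crest and glia markers between 574 and 943 CPM and between 316 and 386 CPM. The coelomic sum was between 1198 and 1693 CPM in CTRL and between 1051 and 1188 CPM in IND. None of these ranges overlapped. Abundant genes carry most of the coelomic sum. Over all libraries KRT19 averaged 705 CPM, GATA4 247 CPM and BNC1 212 CPM, against 17.3 CPM for UPK3B, 2.40 CPM for MSLN and 1.79 CPM for LHX9. The neuron sums were already apart at day 8 (113 to 159 against 77.8 to 83.5 CPM), day 10 (209 to 310 against 64.5 to 157 CPM) and day 12 (292 to 540 against 153 to 239 CPM). The 64.5 CPM at day 10 was replicate 2 of IND, the library that stood apart, and replicates 1 and 3 were at 157 and 147 CPM. The neural crest and glia sums were apart on every day from day 6 (166 to 247 against 88.0 to 122 CPM). In bulk RNA, fewer cells of a type and less RNA per cell cannot be told apart, and the part of these cell types in the lower CRABP1, CRABP2, CYP26B1 and ALDH1A2 was not tested.

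RARB (ENSG00000077092, plus strand of chr3:25174332-25597932) encodes retinoic acid receptor beta and is itself a classic target of retinoic acid through the DR5 shown above. It was at 124, 135 and 80.1 CPM on day 4 and lowest at day 10 in CTRL, with 39.6, 34.9 and 44.0 CPM. At day 14 it was at 62.3, 52.2 and 42.4 CPM in CTRL and at 56.9, 62.6 and 58.9 CPM in IND. All these later libraries were below all day 4 libraries. The log2 fold changes of CTRL against day 4 were -0.56, -1.07, -1.498, -1.14 and -1.10, all called by edgeR, the first at an adjusted p of 0.04. In IND they were -0.61, -0.60, -0.96, -0.83 and -0.93, and the day 10 value missed the threshold (adjusted p = 0.0565, and 0.0362 without IND replicate 2). Several of these calls depended on single libraries. That of CTRL at day 6 was lost in 5 of 6 leave-outs, without day 4 replicate 1 (0.151) or 2 (0.0906) or CTRL replicate 1 (0.145), 2 (0.103) or 3 (0.107). In IND the calls at days 6 and 8 were lost without day 4 replicate 1 (0.116 and 0.101) or 2 (0.0666 and 0.0619) or any of the IND libraries of that day (0.0684 to 0.11), and that at day 12 without day 4 replicate 1 (0.0594).

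RARB was higher in IND than in CTRL at day 8. It was at 72.2, 76.7 and 73.7 CPM in IND against 56.6, 52.0 and 52.6 CPM in CTRL. The libraries did not overlap, and the log2 difference was 0.48 (SE 0.0711), 1.39-fold higher in IND (edgeR adjusted p = 0.00124). The call was kept in 11 of 12 alternatives and lost with 1 fit over all libraries (0.127). Markers of other cell types were apart at day 8 as well. The summed endoderm list was between 172 and 368 CPM in IND and between 61.3 and 146 CPM in CTRL. The intermediate mesoderm list was between 41.6 and 61.8 CPM and between 31.2 and 34.8 CPM, and the endothelium list between 146 and 160 CPM and between 123 and 130 CPM. The stroma list was lower in IND, between 3277 and 4368 CPM against 6060 to 7001 CPM in CTRL. The neuron and the neural crest and glia lists were also lower in IND, as given above. The part of these cell types in the day 8 differences of RARB, ALDH1A1 and RARRES3 was not tested. At day 10 RARB in IND was at 63.3, 37.8 and 73.1 CPM, and the low value came from replicate 2, the library that stood apart. The difference there was 0.56 (SE 0.246, adjusted p = 0.357) with all libraries and 0.78 (adjusted p = 0.00016) without that library. At day 12 it was 0.32 (adjusted p = 0.312, and 0.00785 without IND replicate 1), and at day 14 0.19 (adjusted p = 0.421).

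RARRES3 (ENSG00000133321, plus strand of chr11:63536809-63546462), also called PLAAT4, encodes a phospholipid-metabolising enzyme first found as a gene induced by retinoids in skin cells, and it also responds to interferon. It had 1 count in the 3 day 4 libraries together and was at 0.347 CPM or less in every CTRL library. In IND it was at 1.31, 0.613 and 0.453 CPM at day 6, 2.31, 4.28 and 7.63 CPM at day 8, and 6.47, 7.94 and 4.15 CPM at day 10. It then stood at 5.90, 2.68 and 3.78 CPM at day 12 and 3.81, 4.36 and 4.26 CPM at day 14. On each day all 9 pairs of libraries had the IND value above the CTRL value.

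The log2 difference of RARRES3 between the arms was 3.02 (SE 0.724) at day 6, 5.72 (SE 0.596) at day 8, 5.52 (SE 0.456) at day 10, 4.16 (SE 0.375) at day 12 and 4.05 (SE 0.401) at day 14. The edgeR adjusted p-values were 0.0266, 0.000371, 0.00673, 0.00111 and 4.34e-05. It was the only member called on every day. The day 8 difference was 52.6-fold. Calls at days 8, 12 and 14 held in 12 of 12 alternatives. The day 6 call was lost with limma on FPKM (adjusted p = 0.0888) and without CTRL replicate 1 (0.118), CTRL replicate 2 (0.0643), IND replicate 1 (0.108) or IND replicate 2 (0.0665), and the day 10 call without CTRL replicate 1 (0.0665) or CTRL replicate 2 (0.0609). Without IND replicate 2 the day 10 difference was 5.30 (adjusted p = 3.09e-07). Against day 4, the ratio in IND was 434 at day 8 (95% counting interval 77.6 to 17160) and 507 at day 10 (90.7 to 20061), and in CTRL it was 22.2 at day 14 (3.60 to 914).

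**Figure D3:**
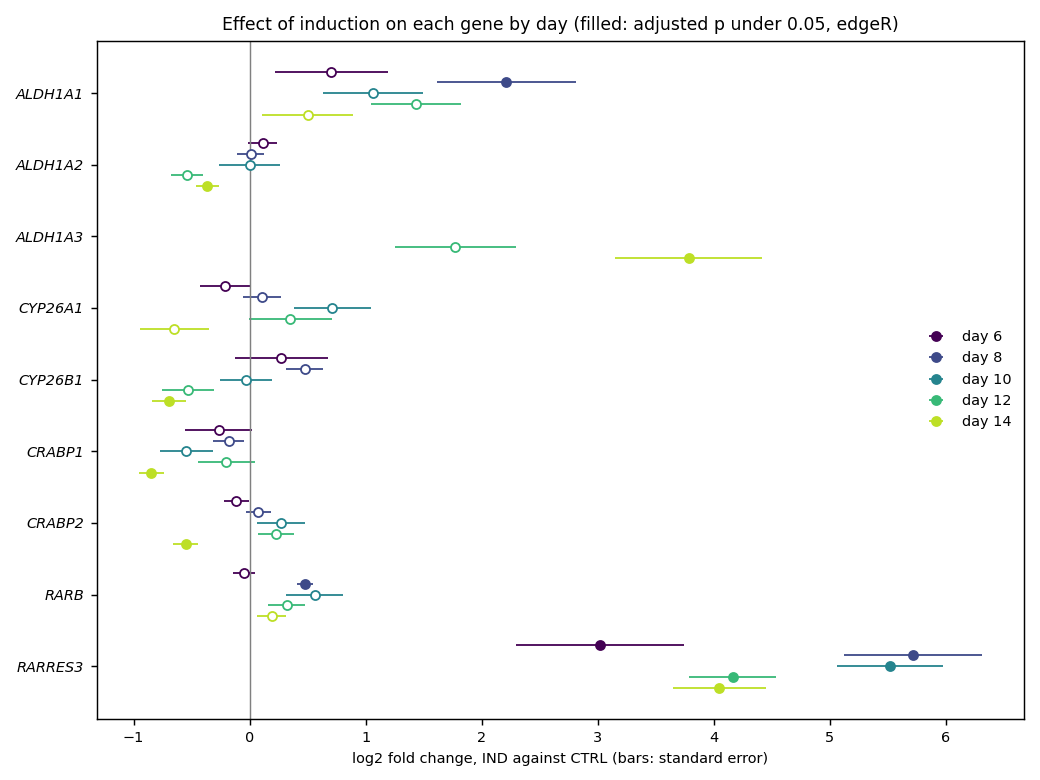
Log2 difference between IND and CTRL for each member on each day, with bars of 1 standard error from the edgeR fit and filled points where the adjusted p was under 0.05. RARRES3 lies above 3 on every day, RARB is called at day 8 alone, and CRABP1, CRABP2, CYP26B1 and ALDH1A2 are called below 0 at day 14. Days on which ALDH1A3 was not tested have no point.

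Since RARRES3 also answers to interferon, 23 other interferon response genes were read beside it. Of these, 6 of 18 tested were higher in IND at day 6, 17 of 20 at day 8 and 3 of 19 at day 10. At day 12 they were 15 of 22, and at day 14 they were 12 of 21. The shares of all genes called higher on these days were 1.29%, 7.49%, 0.856%, 2.38% and 3.21%. No gene of the interferon list was called lower on any of these days. The median log2 differences of the list were 0.81, 1.45, 1.42, 1.53 and 1.02, while the median of all genes stayed within 0.07 of 0 in every comparison. At day 10, 18 of the list were called without IND replicate 2 and 0 without CTRL replicate 1 or 2. Elsewhere the count fell by more than 1.5 times to 3 at day 6 without CTRL replicate 1 or IND replicate 2, to 10 and 11 at day 8 without CTRL replicate 1 and CTRL replicate 3, and at day 12 to 8, 7, 5 and 8 without CTRL replicates 1, 2 and 3 and IND replicate 2. In the same fits, all genes called went from 404 to 3768, 12 and 11 at day 10. They fell from 700 to 402 and 348 at day 6, from 2752 to 1382 and 1321 at day 8, and from 1080 to 508, 496, 417 and 590 at day 12. The members of the interferon list with the highest FPKM were BST2, IFI6 and ISG15. BST2, a membrane protein that tethers viruses, averaged 301 CPM under induction at day 8, against 224 CPM in CTRL (log2 difference 0.44, edgeR adjusted p = 0.0407). ISG15, a ubiquitin-like protein, was higher by 1.19 at day 8 (adjusted p = 0.00281) and IFI6 by 0.80 (adjusted p = 0.00565). A listed gene at the floor in CTRL, as IFI44L, OAS2 and PSMB9 were at day 8, could be tested only if it passed the filter in IND. The paper also named TLR3 among its top upregulated genes of day 6, from the same libraries. These counts therefore describe the list and are no test of it. The part of interferon response in the RARRES3 difference was not tested.

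**Figure D4:**
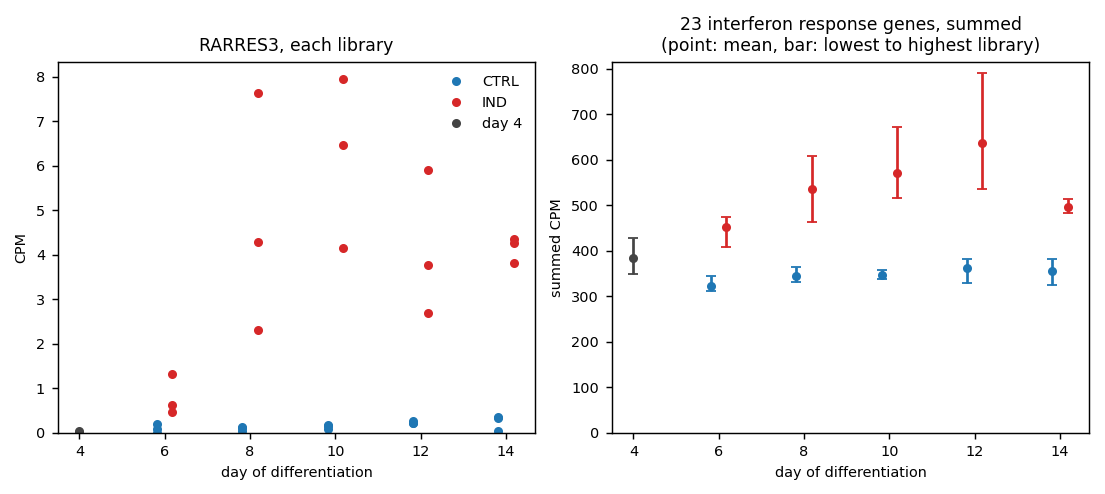
RARRES3 in CPM by day and arm, with 1 point per library (left), beside the summed CPM of the 23 interferon response genes, with the mean of 3 libraries as a point and a bar from the lowest to the highest library (right). RARRES3 is at 0.347 CPM or less in every CTRL library and at 0.453 CPM or more in every IND library.

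Whether the difference between the arms changed with the day was tested with an interaction of day and induction over the 30 libraries after day 4 (edgeR, 4 terms). No member was called, where 2.38% of all 22442 genes were (533). At an unadjusted p under 0.05 there were 4 members, ALDH1A3, CRABP2, CYP26B1 and RARRES3. Their edgeR adjusted p-values were 0.0622, 0.151, 0.302 and 0.351. ALDH1A3 passed with DESeq2 (0.00463), with limma (0.0111) and without a filter on low counts (0.00541), CRABP2 with DESeq2 (0.0458) and without the filter (0.00221), CYP26B1 and CRABP1 without the filter (0.0319 and 0.0371), and RARRES3 with limma (0.0114) and without the filter (0.0244). Without replicate 2 of day 10 IND, ALDH1A2 (0.0336), ALDH1A3 (0.0427) and RARB (0.0425) were called, and 1016 genes in all.

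The order of the 11 groups differed among the members. ALDH1A1 was highest in day 12 IND, clear of the other groups, and lowest on day 4. ALDH1A2 was highest in day 14 CTRL and on day 4, which overlapped, and lowest in day 10 CTRL, day 10 IND and day 12 IND, which also overlapped. CYP26B1 was highest in day 14 CTRL, without overlap with the next group, and CYP26A1 was lowest in day 14 IND, where 1.10 to 2.28 CPM overlapped the 2.25 to 3.00 CPM of day 14 CTRL. CRABP2 and RARB were highest on day 4, each above every later library. RARRES3 was highest in the IND groups of days 8 to 14, which overlapped each other, followed by day 6 IND and then the CTRL groups.

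Among 12492 candidate genes, those whose mean log2 level over the 11 groups had the highest Pearson correlation with each member are given as a description, with no test, since all share the same libraries. For ALDH1A1 they were GALNT3 (0.981), KAZALD1 (0.978) and HHIP (0.967), for ALDH1A2 FZD10 (0.894), NAV1 (0.867) and SKAP2 (0.865), and for ALDH1A3 OGN (0.960), SERTAD4 (0.896) and TPT1 (0.863). CYP26A1 was nearest to XIRP1 (0.979), NASP (0.979) and GPN3 (0.978), and CYP26B1 to SDK1 (0.975), KBTBD11 (0.972) and CLSTN3 (0.971). For CRABP1 the nearest were ODF3B (0.971), TMEM178A (0.970) and EFNA5 (0.968), and for CRABP2 FGF19 (0.965), SLC25A6 (0.955) and ICAM5 (0.953). RARB was nearest to CA14 (0.963), PAMR1 (0.962) and TMTC1 (0.948), and RARRES3 to RAI2 (0.982), GPAT3 (0.982) and OSR1 (0.978).

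A list of 30 other retinoid genes places the members in their pathway. Between the arms, 0 were higher and 4 lower of 27 tested at day 6, and 5 higher and 5 lower of 28 at day 8. They were 1 and 2 of 28 at day 10, 3 and 1 of 28 at day 12, and 1 and 5 of 28 at day 14. The shares of all genes called were 3.66% (1.29% higher and 2.37% lower), 14.2% (7.49% and 6.67%), 2.03% (0.856% and 1.18%), 5.42% (2.38% and 3.04%) and 8.43% (3.21% and 5.22%). The median log2 differences of the list lay between -0.08 and 0.07. Against day 4, CTRL had 6 higher and 3 lower of 25 tested at day 6 and 11 higher and 10 lower of 26 at day 14. The shares of all genes called there were 21.6% and 47.6%. Without replicate 2 of day 10 IND, the day 10 count was 12 rather than 3, where all genes called were 3768 rather than 404. It was 0 without any other library of that day, where 11 to 72 of all genes were called. The 3 day 10 calls, of RDH10, RXRG and NR2F1, were thus lost in each of those fits, and also with the replicate block. At day 6 the count was 2 without CTRL replicate 1, IND replicate 2 or IND replicate 3 and 7 without IND replicate 1. At day 8 it was 5 without CTRL replicate 3, 6 without CTRL replicate 1, IND replicate 1 or IND replicate 2, and 15 without IND replicate 3, and at day 12 it was 1 and 2 without CTRL replicates 2 and 3 and 9 without IND replicate 1. In the same fits, all genes called were 348 to 536 and 915 at day 6, beside 700 with all libraries. At day 8 they were 1321, 1382 to 1817 and 4732, beside 2752, and at day 12 they were 496, 417 and 1979, beside 1080. RDH10, the enzyme that makes retinal for the ALDH1A members, was called lower in IND on every day with all libraries. The mean level of RDH10 at day 6 was 91.5 CPM with induction and 174 CPM without, followed by 51.0 and 109 CPM at day 8, 39.1 and 63.4 CPM at day 10, 29.96 and 65.0 CPM at day 12, and 46.7 and 68.3 CPM at day 14. The RDH10 libraries of the arms did not overlap on any day. The RDH10 log2 differences were -0.91 (SE 0.154), -1.09 (SE 0.209), -0.69 (SE 0.108), -1.12 (SE 0.135) and -0.54 (SE 0.105), with edgeR adjusted p-values of 0.00575, 0.0195, 0.0314, 0.00346 and 0.00513. Without IND replicate 2 the day 10 difference of RDH10 was -0.70 (adjusted p = 2.72e-05), while the call was lost without any other library of that day. DHRS3, which returns retinal to retinol, was lower in IND at day 6 (-0.54, adjusted p = 0.0108) and at day 14 (-0.42, adjusted p = 0.0173).

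Among the genes of retinol uptake and storage, RBP4, the retinol carrier of blood, was higher in IND at day 8 (2.51, edgeR adjusted p = 0.0452) and day 12 (1.94, 0.0162), and STRA6, the membrane transporter of retinol, was lower at day 8 (-0.56, 0.00159). Among the receptors, RXRG was lower in IND at day 6 (-0.89), day 8 (-2.17, edgeR adjusted p = 5.92e-05), day 10 (-1.30, and -1.16 with adjusted p = 0.000106 without IND replicate 2) and day 14 (-1.15), but not at day 12 (-0.04, 0.924), and its interaction of day and induction was called. The RXRG call at day 10 was lost without any other library of that day. RARA was lower at day 14 (-0.54, 0.00115), RARG at day 8 (-0.35, 0.0206), and RXRA was higher at day 8 (0.38, 0.00612). RXRB was called on no day. FABP5, which can carry retinoic acid to another receptor, was called on no day either. CYP26C1, the third CYP26 enzyme, was lower in IND at day 14 (-2.83, 0.00263), at 0.142 CPM against 1.04 CPM. Without IND replicate 2, CYP26C1 (-2.05, 0.0225, against 0.53 with all libraries) and RARA (-0.30, 0.0165) were also called lower and RXRA (0.28, 0.00559) higher at day 10.

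Of the 10 other responsive genes, NR2F1, an orphan nuclear receptor that retinoic acid induces, was higher in IND at days 8, 10 and 12 (0.55, 0.79 and 0.72, edgeR adjusted p = 0.000663, 0.0137 and 0.0152), with a day 10 value of 0.80 (1.36e-06) without IND replicate 2. The NR2F1 call at day 10 was lost without any other library of that day. HOXB1, an early retinoic acid target, was lower at day 6 (-0.70, 0.00299). NR2F2 was called on no day with all libraries and higher at day 10 without IND replicate 2 (0.27, 0.0286). TGM2 and MEIS2 were chosen after their values were seen. TGM2, a transglutaminase that retinoic acid induces in many cells, was higher in IND at day 8 (0.86, edgeR adjusted p = 0.000322), day 12 (0.84, 0.00814) and day 14 (1.15, 1.07e-05), and also at day 10 without IND replicate 2 (0.81, 1.07e-05 as well), and MEIS2 was lower at day 8 (-0.47, 0.025). STRA8, a marker of meiotic entry, was at 0.0973 CPM or less in every library.

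**Figure D5:**
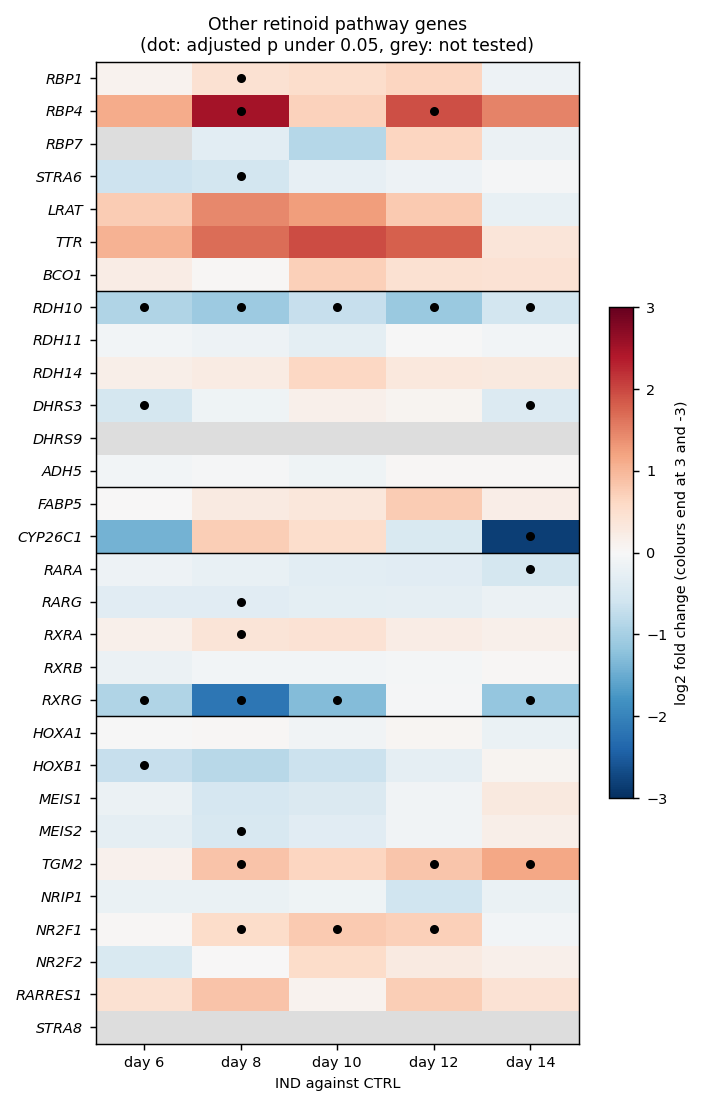
Log2 difference between IND and CTRL on each day for the 30 other retinoid genes, grouped by role, with colour for the difference (red higher in IND, blue lower), a dot where the edgeR adjusted p was under 0.05 and grey for genes not tested. RDH10 is lower in IND with a dot on all 5 days, and RXRG on 4 of them.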

How the data were processed

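Poly(A) RNA was sequenced from 33 libraries in 11 groups of 3. Per the paper and the submitters' notes, the authors trimmed reads with fastp 0.23.2, aligned them to GRCh38 with HISAT2 2.0.5 and counted them per gene with featureCounts 1.5.0-p3, and the preparation kept no strand. The deposited tables hold raw counts and FPKM, which the authors scaled by gene length and a library factor that made them 0.943 to 1.12 times the values given by the plain totals. Totals were 23940837 to 51912815 counts. Here the counts were filtered with filterByExpr, scaled by TMM and tested with edgeR 4.0.16 (quasi-likelihood, R 4.3.3), 6 libraries per comparison, with Benjamini-Hochberg adjustment over all genes tested and a threshold of 0.05. Standard errors are the log2 fold change divided by the root of F. CPM is the count over the TMM-scaled library size. Alternatives were DESeq2 1.42.0, its size factors, no filter, 1 fit over all libraries, limma 3.58.1 on log2(FPKM + 1), which understates changes of low genes, a replicate block, and each library left out. The interaction without day 10 IND replicate 2 was added after seeing the data. The members, lists and tests were chosen with earlier results of these data known. Non-members were named by role and FPKM. Profile likeness used log2(CPM + 0.5) group means. The scripts were tested on simulated data.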

Additional observations from a re-analysis of the deposited data

Results flagged for a closer look

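CYP26B1 was flagged because its 2 arms differed in opposite directions on 2 days. All IND libraries were above all CTRL libraries at day 8 (log2 difference 0.47) and below them at day 14 (log2 difference -0.70). The interaction of day and induction, which tests whether the differences of the 5 days are unequal, had a p of 0.0305 and an adjusted p of 0.302 over all genes (edgeR quasi-likelihood test), so it missed the threshold. No group of 3 libraries could be tested for a sample far from the others.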

How the results depend on the processing

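Of 936 alternative values of the called members, 885 stayed past the threshold in the same direction, 51 lost the call and 0 changed direction. Among the uncalled differences between IND and CTRL, these turned: ALDH1A2 at day 8 with no filter (-0.00118) and with 1 fit (-0.00205), and, as ranges with a library left out, ALDH1A2 at day 6 (-0.0504 to 0.231), day 8 (-0.108 to 0.0871) and day 10 (-0.203 to 0.240), CYP26A1 at day 12 (-0.0864 to 0.662), CYP26B1 at day 6 (-0.423 to 0.611) and day 10 (-0.169 to 0.129) and CRABP2 at day 8 (-0.0180 to 0.192). Members called moved from 1 to 0 at day 6 with limma (0 to 2 with a library left out), from 1 to 2 at day 10 with 1 fit (0 to 3) and from 1 to 3 at day 12 with no filter and with DESeq2 (1 to 3). They were 3 to 6 at day 14 and 3 to 5 for IND day 6 against day 4 with a library left out. Retinoid genes called ranged with a library left out from 2 to 7, 5 to 15, 0 to 12, 1 to 9 and 4 to 6 on days 6 to 14, and from 5 to 13 for CTRL day 6 and 10 to 18 for IND day 10 against day 4. They were 6 with DESeq2 and 8 with 1 fit at day 10, 7 with no filter and 8 with DESeq2 at day 12, and 3 with 1 fit at day 14. Interferon genes called were 2 with 1 fit at day 6 (3 to 5 with a library left out), 10 to 17 at day 8, 11 with DESeq2 and 18 with 1 fit at day 10 (0 to 18) and 8 with limma at day 12 (5 to 14). In the interaction, members called were 5 with no filter, 2 with DESeq2, 2 with limma and 0 to 3 with libraries left out, and retinoid genes 10, 5, 1 and 0 to 3. The genes called in all were 404 at day 10 and 1787 with DESeq2, and in the interaction 533, 2360 with no filter, 1283 with DESeq2 and 43, 253 and 120 without replicates 1, 2 and 3. With a library left out, all genes called between the arms ranged from 348 to 915, 1321 to 4732, 11 to 3768, 417 to 1979 and 905 to 1987 on days 6 to 14. At day 12 they were 1878 with no filter and 1956 with DESeq2, beside 1080. The cause of these changes was not tested.

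Replicate numbers did not pair the arms: deviations of same-numbered CTRL and IND libraries had correlations from -0.107 to 0.0781 over 15 pairs, with 0 over 0.1. With the replicate block, members called at day 12 were 2, retinoid genes 0 at day 10, 8 at day 12 and 7 for IND day 10 against day 4, interferon genes 0 at day 10, all genes 15 at day 10 and the interaction 566 genes. The block also ended the calls against day 4 of ALDH1A2 (adjusted p = 0.0561) and CYP26A1 (0.0719) in day 10 IND and of RARB (0.0506) in day 6 IND.

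With 1 differentiation of 1 clone, the spread between differentiations is unknown. ALDH1A1, ALDH1A3 and RARRES3 had few counts in many groups, so their fold changes are imprecise.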
